A study of Mus musculus with 4 samples.

Results

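The circadian clock genes Arntl (also called Bmal1), Clock, Npas2, Per1, Per2, Per3, Cry1, Cry2, Dbp and Ciart were followed in RNA sequencing of mouse brown adipose tissue. They were taken by symbol from the deposited rows, and all 10 were found among 55387 rows. The tissue came from 4 male C57BL/6 mice aged 15 weeks, with 1 library per mouse. The 2 control mice carried floxed Sox4 alleles (Sox4f/f, labelled WT), and the 2 Sox4-MKO littermates carried the same alleles together with a Myf5-Cre transgene, which deletes Sox4 in the lineage that forms brown adipocytes and skeletal muscle. The mice were kept at 22 to 24 °C with 12 hours of light a day from 7 am, and the hour at which each mouse was killed is not given in the sources used here. All values are FPKM, fragment numbers corrected for the length of the transcript and for the mapped total, so that levels can be compared between genes.

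The clock of a mammalian cell is a loop of transcription. ARNTL pairs with CLOCK, or with its relative NPAS2, and the pair binds E-box elements to switch on the Per and Cry genes, whose proteins return to the nucleus and block the pair. The nuclear receptors REV-ERB (Nr1d1, Nr1d2) and ROR form a further loop that represses or activates Arntl, while DBP and its relatives TEF and HLF act on D-box elements. Brown fat holds this clock like other peripheral tissues, and heat production and lipid handling in brown fat change with the time of day. In mouse tissues kept in a light and dark cycle, Dbp, Per3, Ciart and the REV-ERB genes are high in the later part of the light phase when Arntl and Npas2 are low, and the order is turned around late in the dark phase.

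The elements that carry this loop were searched in the promoters of the clock genes and are shown as sequence context for the values that follow. The windows span 250 bases before to 50 bases after each annotated start (RefSeq, GRCm38.p6), and 9 of the 10 genes had an entry, all but Per2. The motifs, searched on both strands, were the E-box CACGTG, the D-box TTANGTAA, the element bound by ROR and REV-ERB receptors (spelled out in the Arntl stretch) and the cAMP response element TGACGTCA. Of all 32851 windows, 7.15% held the E-box, 2.32% the D-box, 0.219% the ROR/REV-ERB element and 1.79% the cAMP response element. Among the 9 genes, 3 held an E-box (Ciart, Cry1 and Per1), 1 held the D-box (Per3), 1 held the ROR/REV-ERB element (Arntl) and 0 held the cAMP response element. A gene counted if any of its windows matched, whereas the shares above are of windows. Arntl, Clock and Per1 had more than 1 window, and the matches of Arntl and Per1 were each in only 1 of theirs. The stretches with these matches are given on the strand of the gene, with the motif in capitals.

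Ciart, 3 E-boxes, chr3:95882259-95882358, minus strand, before the first exon:
Ciart: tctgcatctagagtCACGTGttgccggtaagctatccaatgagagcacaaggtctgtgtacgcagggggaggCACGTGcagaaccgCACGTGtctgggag
Cry1, 1 E-box, chr10:85185085-85185134, minus strand, before the first exon:
Cry1: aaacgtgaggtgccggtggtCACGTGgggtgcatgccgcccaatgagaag
Per1, 1 E-box, chr11:69098759-69098808, plus strand, in an intron of a longer transcript:
Per1: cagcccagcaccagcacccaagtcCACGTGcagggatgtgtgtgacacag
Per3, 2 D-boxes, chr4:151044805-151044880, minus strand, before the first exon:
Per3: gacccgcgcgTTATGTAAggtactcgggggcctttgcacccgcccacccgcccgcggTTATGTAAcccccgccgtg
Arntl, 1 ROR/REV-ERB element, chr7:113207528-113207557, plus strand, in the untranslated part of an exon:
Arntl: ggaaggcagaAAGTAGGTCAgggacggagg

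In the Ciart window the E-boxes began 116, 58 and 44 bases before the start, and in the Per3 window the D-boxes began 205 and 158 bases before it. The E-box of Cry1 began 60 bases before the start, that of Per1 166 bases before it, and the element of Arntl 27 bases after it. A match shows only that these letters stand in the window. No match was found in the windows of Clock, Npas2, Cry2 and Dbp, which says nothing of sites farther away.

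Sox4 itself was checked first. It had 1.98 and 1.06 FPKM in Sox4f/f mice 1 and 2, against 0.98 and 3.06 FPKM in Sox4-MKO mice 1 and 2, so the RNA did not follow the genotype label. For younger Sox4-MKO mice, the paper reports greatly reduced SOX4 protein in brown fat. Every direction below is that of the labels. Estimated depth was similar across libraries, as 1 fragment per kilobase of transcript was worth 0.063 to 0.083 FPKM, as estimated from the value that a single fragment takes in genes with 1 transcript. In Sox4-MKO mouse 2 the estimate settled on 2 values, and the lower, 0.063, was used, so its depth and fragment numbers are less sure. All 6 brown adipocyte markers were present, with Ucp1 between 733 and 1935 FPKM, and 5 of the 6 were lower in both Sox4-MKO libraries than in both Sox4f/f libraries. The 10 skeletal muscle markers summed to 225 and 849 FPKM in Sox4f/f mice 1 and 2, against 16141 and 2795 FPKM in Sox4-MKO mice 1 and 2, with none at 0 and 9 of 10 higher in both Sox4-MKO libraries than in both Sox4f/f libraries. Among the 12877 genes whose mean FPKM exceeded 1 in either genotype, 3815 were likewise lower and 2795 higher in both Sox4-MKO libraries, together 51.3%. Muscle has a clock of its own. In tissue RNA, fewer cells of a type and less RNA per cell cannot be told apart.

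Most of the clock genes differed more between the 2 mice of a genotype than between the genotypes. In each genotype, mouse 1 had high Dbp, Per3 and Ciart with low Arntl and Npas2, and mouse 2 had the reverse. The mouse numbers are those of the sample titles, and nothing in the labels ties the equal numbers of the 2 genotypes to each other.

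Arntl, whose protein pairs with CLOCK or NPAS2, lies on chromosome 7 of GRCm38 (113207465 to 113314126, GENCODE M21). Its level was 2.35 FPKM in Sox4f/f mouse 1, against 12.8 FPKM in Sox4f/f mouse 2, a 5.45-fold difference within the genotype. It was 1.07 FPKM in Sox4-MKO mouse 1 and 11.5 FPKM in Sox4-MKO mouse 2, a 10.8-fold difference. The high and the low mouse of one genotype thus matched those of the other, and the genotypes overlapped.
Npas2, on chromosome 1 (39193731 to 39363236), went the same way as Arntl. It had 0.015 and 2.50 FPKM in Sox4f/f mice 1 and 2, against 0.044 and 1.58 FPKM in Sox4-MKO mice 1 and 2. The low values stood for about 0.8 and 2.4 estimated fragments, and the high ones for about 127 and 106. The gene was thus close to undetected in mouse 1 of both genotypes, and no fold difference between the mice is given here.
Clock, on chromosome 5 (76209868 to 76304792), is often nearly flat through the day. It had 12.6 and 13.3 FPKM in Sox4f/f, which is a difference of little more than 1.05-fold, and 7.35 and 16.7 FPKM in Sox4-MKO mice 1 and 2. The Sox4f/f values thus lay between that of Sox4-MKO mouse 1, the library with the most muscle RNA, and that of Sox4-MKO mouse 2. The part of muscle RNA in these values was not tested.

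Among the repressors, Cry1 followed Arntl. Cry1 (chromosome 10, 85131700 to 85185064) encodes the cryptochrome with the strongest repression and is known to peak later than the other repressors. It had 7.79 and 16 FPKM in Sox4f/f mice 1 and 2, against 7.04 and 11.9 FPKM in Sox4-MKO mice 1 and 2. Both mice numbered 2 were above both mice numbered 1, and within each number the Sox4f/f value was the higher one.
Its paralogue Cry2 (chromosome 2, 92403646 to 92434043) had 10.8 and 8.22 FPKM in Sox4f/f mice 1 and 2, against 14.6 and 8.85 FPKM in Sox4-MKO. The order of the mice was opposite to that of Cry1, with differences of 1.32-fold and 1.65-fold within the genotypes.
Per3 (chromosome 4, 151003652 to 151044665) had 9.73 and 5.36 FPKM in Sox4f/f mice 1 and 2, against 24.3 and 3.47 FPKM in Sox4-MKO mice 1 and 2. This gene, whose promoter holds both D-boxes shown above, varied 1.82-fold between the Sox4f/f mice and 7.00-fold between the Sox4-MKO mice.
Per1 (chromosome 11, 69095217 to 69109960) and Per2 (chromosome 1, 91415982 to 91459324) also respond to glucocorticoids and cAMP. Per1 had 28.1 and 27.1 FPKM in Sox4f/f mice 1 and 2, against 32.2 and 19.2 FPKM in Sox4-MKO, so that both Sox4f/f values lay between the Sox4-MKO values. Per2 had 14.3 and 13.4 FPKM in Sox4f/f, above the 12.7 and 8.55 FPKM of Sox4-MKO mice 1 and 2. Per2 was thus the member whose genotypes did not overlap, and its Sox4f/f mice differed by only 1.06-fold.

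Dbp showed the widest difference between mice of the 10 genes on the log2(FPKM + 1) scale. Dbp (chromosome 7, 45705088 to 45710203), a D-box activator that the ARNTL dimer switches on, had 49.0 FPKM in Sox4f/f mouse 1, against 3.59 FPKM in Sox4f/f mouse 2, a 13.7-fold difference. In Sox4-MKO it had 70.6 FPKM in mouse 1 and 3.06 FPKM in mouse 2, a 23.1-fold difference. Dbp was the highest of the 10 genes in mouse 1 of both genotypes, while Per1 was the highest in mouse 2 of both.
Ciart (chromosome 3, 95878503 to 95882251), a repressor of the ARNTL dimer whose promoter holds the 3 E-boxes shown above, had 7.08 and 0.92 FPKM in Sox4f/f mice 1 and 2. In Sox4-MKO mice 1 and 2 it had 3.84 and 0.68 FPKM. The differences were 7.70-fold and 5.65-fold, with the higher value in mouse 1 both times.

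**Figure D1:**
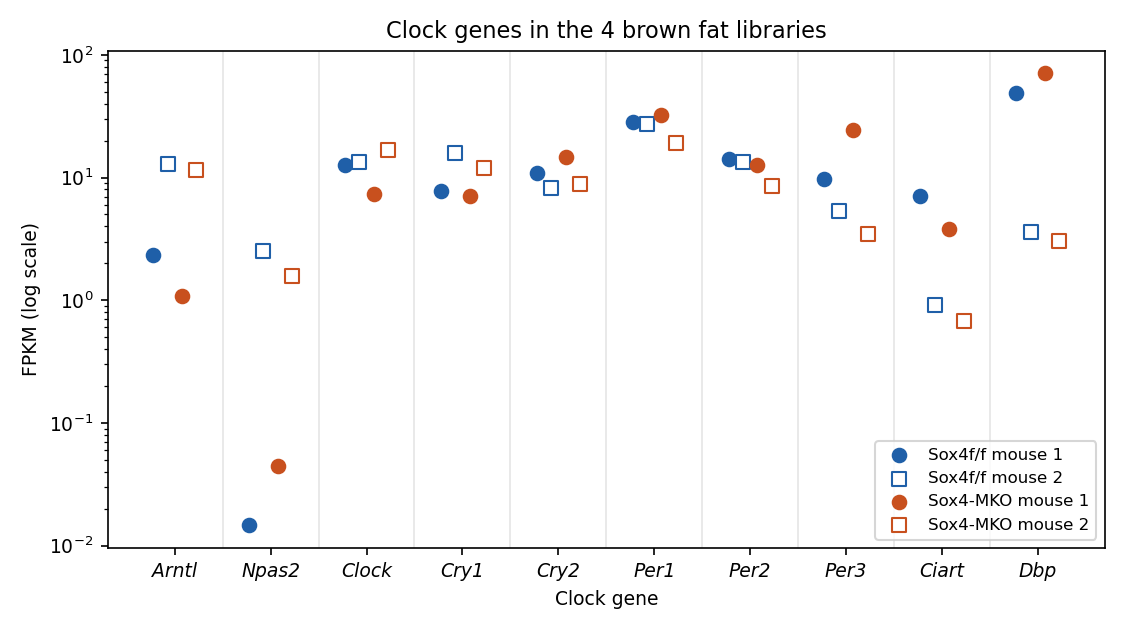
FPKM (log scale) of the 10 clock genes in each of the 4 libraries, 1 point per mouse; colours mark genotype, and filled circles and open squares mark mice 1 and 2. Arntl, Npas2 and Cry1 are low and Dbp, Ciart and Per3 high in mouse 1 of both genotypes, with Dbp at 49.0 and 70.6 FPKM against 3.59 and 3.06 FPKM.

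Ratios of genes that oppose each other through the day gave a value per library that does not depend on its scaling. The log2 ratio of Dbp to Arntl was 4.38 in Sox4f/f mouse 1 and -1.84 in Sox4f/f mouse 2, and it was 6.04 in Sox4-MKO mouse 1 and -1.92 in Sox4-MKO mouse 2. The log2 ratio of Per3 to Arntl was 2.05, -1.26, 4.50 and -1.73 in the same order of libraries. For Ciart to Npas2 it was 8.92, -1.44, 6.44 and -1.22, and the values above 0 rest on the few fragments of Npas2. With 1 FPKM added to both genes, the Ciart to Npas2 values were 2.99, -0.87, 2.21 and -0.62. For Nr1d1 to Arntl the log2 ratio, again with nothing added, was 5.34, -0.91, 5.40 and -0.35. All 4 ratios were above 0 in mouse 1 and below 0 in mouse 2 of both genotypes. Each genotype therefore held 1 mouse of each pattern, and the genotype means of the Dbp to Arntl ratio differed by 0.79, against 6.22 and 7.96 between the mice of Sox4f/f and Sox4-MKO. Whether the hour of collection differed between the mice was not tested.

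**Figure D2:**
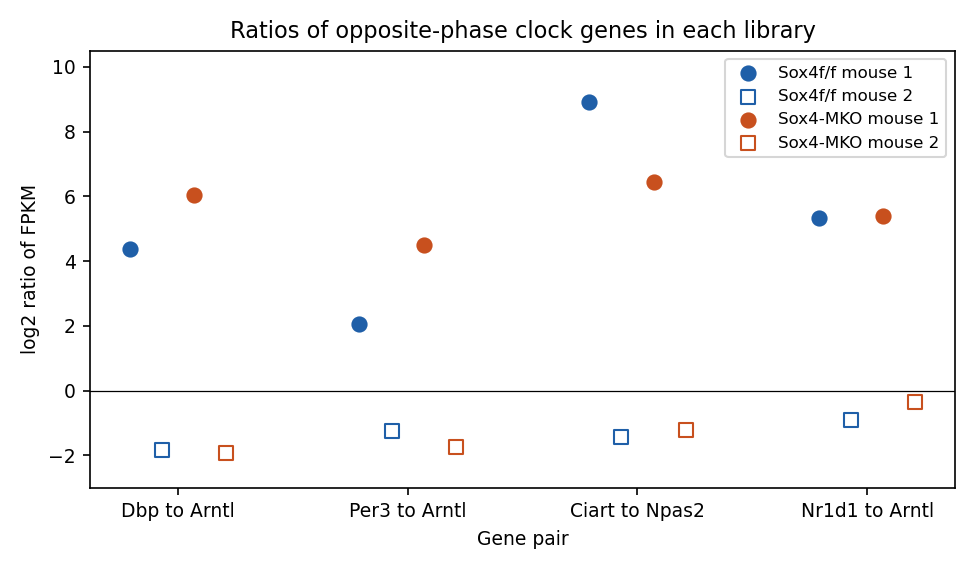
log2 ratio of FPKM for 4 pairs of clock genes of opposite phase, 1 point per library; the line at 0 marks equal levels. Filled circles (mouse 1) lie above 0 and open squares (mouse 2) below 0 for every pair, in Sox4f/f (blue) and in Sox4-MKO (orange). The Ciart to Npas2 values above 0 rest on few fragments of Npas2.

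The pattern was then set against the 12877 genes whose mean FPKM exceeded 1 in either genotype, on the log2(FPKM + 1) scale, which understates differences of low genes. All 10 clock genes passed this limit, Npas2 through its level in Sox4f/f mouse 2. The difference between mouse 1 and mouse 2 had the same direction in both genotypes for all 10 clock genes, 6 higher in mouse 1 and 4 higher in mouse 2, against 50.5% of all genes. It was at least 2-fold in the same direction in both genotypes for 4 of the 10, Dbp, Arntl, Ciart and Npas2, against 0.59% of all genes (76 genes). With 1 library on each side of such a difference there is no test. The clock genes regulate each other, and the mouse numbers do not pair the genotypes. Their directions are therefore not separate observations, and the share of all genes does not measure how unusual the count is.
The median size of the difference between the Sox4f/f mice was 0.85 for the clock genes and 0.19 for all genes, and between the Sox4-MKO mice it was 1.20 and 0.23. Ranked by the smaller of their 2 differences, among 12596 genes above 0 in every library, Dbp stood first, Arntl 5th, Ciart 11th and Npas2 21st. Per3, Cry1 and Cry2 followed at ranks 110, 146 and 743, and Per2, Clock and Per1 stood between ranks 4067 and 4760. The difference between mice exceeded the genotype difference in both genotypes for 7 of the 10, all but Clock, Per1 and Per2, against 29.7% of all genes.

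**Figure D3:**
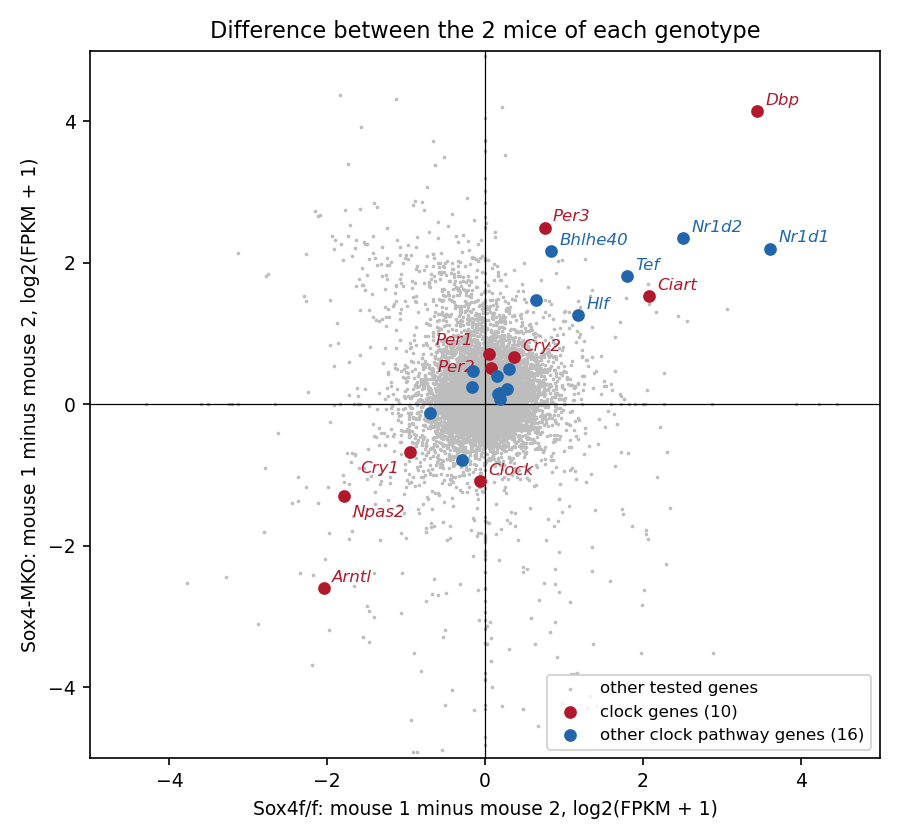
Difference between mouse 1 and mouse 2 in log2(FPKM + 1), in Sox4f/f (x axis) and in Sox4-MKO (y axis), for tested genes (grey, 26 genes outside the axes are not drawn), the 10 clock genes (red) and 16 other clock pathway genes (blue). All 10 clock genes lie at the upper right or lower left of the origin, with Dbp, at 3.45 and 4.14, the farthest of them to the upper right and Arntl, at -2.04 and -2.60, far to the lower left.

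The other genes of the clock pathway were read from a list of 18, of which 16 passed the limit, Rorb and Fbxl21 being too low. For 14 of the 16 the mice differed in the same direction in both genotypes, against 50.5% of all genes, the exceptions being Timeless and Csnk1e. For 4 the difference was at least 2-fold in both, against 0.59% of all genes, namely Nr1d1, Nr1d2, Tef and Hlf. These genes too are tied to the loop, so they are not separate observations.
Nr1d1, which encodes REV-ERBα, a repressor of Arntl, had 95.1 and 6.84 FPKM in Sox4f/f mice 1 and 2, against 45.4 and 9.08 FPKM in Sox4-MKO mice 1 and 2. Nr1d2, its partner in that role, had 41.5 and 6.48 FPKM in Sox4f/f mice 1 and 2, against 39.1 and 6.88 FPKM in Sox4-MKO. Both were high where Arntl, which carries the ROR/REV-ERB element shown above, was low.
The PAR bZIP factors, relatives of Dbp, went with it. Tef had 101 and 28.5 FPKM in Sox4f/f mice 1 and 2, against 105 and 29.1 FPKM in Sox4-MKO, so the same-numbered mice of the 2 genotypes were nearly equal. Hlf had 16.9 and 6.90 FPKM in Sox4f/f mice 1 and 2, against 15.1 and 5.74 FPKM in Sox4-MKO. Nfil3, which competes with these factors for the D-box, ran the other way, with 17.8 and 22.1 FPKM in Sox4f/f mice 1 and 2, against 11.5 and 20.5 FPKM in Sox4-MKO.
Bhlhe40 and Bhlhe41, E-box repressors, were higher in mouse 1. Bhlhe40 had 10.3 and 5.31 FPKM in Sox4f/f mice 1 and 2, against 36.7 and 7.37 FPKM in Sox4-MKO, and Bhlhe41 had 3.43 and 1.84 FPKM and 6.42 and 1.67 FPKM. The highest Bhlhe40 value was in the library with the most muscle RNA, whose part in it was not tested.
Rora, which encodes a ROR receptor that activates Arntl, varied less between the mice. It had 5.38 and 4.73 FPKM in Sox4f/f mice 1 and 2, against 8.94 and 6.56 FPKM in Sox4-MKO, and the genotypes did not overlap. Rorb was between 0.18 and 0.39 FPKM.

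Sox4-MKO and Sox4f/f were then compared by limma on the same scale, in a model without other terms and with a trended prior. None of the 10 clock genes had an unadjusted p under 0.05, against 16.2% of all genes, 8.28% lower and 7.95% higher in Sox4-MKO. After Benjamini-Hochberg adjustment 0.0% of all genes were called. The log2 fold changes of the clock genes (Sox4-MKO minus Sox4f/f) ran from -0.47 for Ciart to 0.36 for Per3, with a median of -0.20 beside -0.05 for all genes. Their standard errors ran from 0.21 to 1.78 with a median of 0.59, against a median of 0.20 for all genes, so that the test could detect less in these genes than in most others.
Only 1 of the 10, Per2, did not overlap between the genotypes, against 51.3% of all genes. Its mean level in Sox4f/f was 13.8 ± 0.59 FPKM, beside 10.6 ± 2.91 FPKM in Sox4-MKO (SD, n = 2 mice each), with a log2 fold change of -0.38 (standard error 0.21, unadjusted p = 0.145, adjusted p = 0.443 by limma). For a single gene, the exact permutation test (two-sided) on 2 and 2 mice gives no p below 0.33.
Arntl had 7.59 ± 7.40 FPKM in the Sox4f/f mice, against 6.31 ± 7.40 FPKM in Sox4-MKO (SD, n = 2 mice each), and its log2 fold change was -0.42 (SE 1.10, adjusted p = 0.871 by limma). Dbp had 26.3 ± 32.1 FPKM and 36.8 ± 47.8 FPKM (SD, n = 2 mice each), and its log2 fold change was 0.17 (SE 1.78, adjusted p = 0.970 by limma). In both genes the SD within each genotype exceeded the difference between the means.
The direction of several genes rested on a single library. Without Sox4-MKO mouse 1, which left 1 Sox4-MKO mouse, the log2 fold change was -0.50 for Per1, -0.64 for Per2, 0.35 for Clock and -0.89 for Per3. Without Sox4-MKO mouse 2, it was 0.22, -0.12, -0.74 and 1.62 in the same order of genes. Dbp went from 0.17 to -1.90 without Sox4-MKO mouse 1 and to 2.24 without Sox4-MKO mouse 2, as each removal left a genotype with 1 pattern only.

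**Figure D4:**
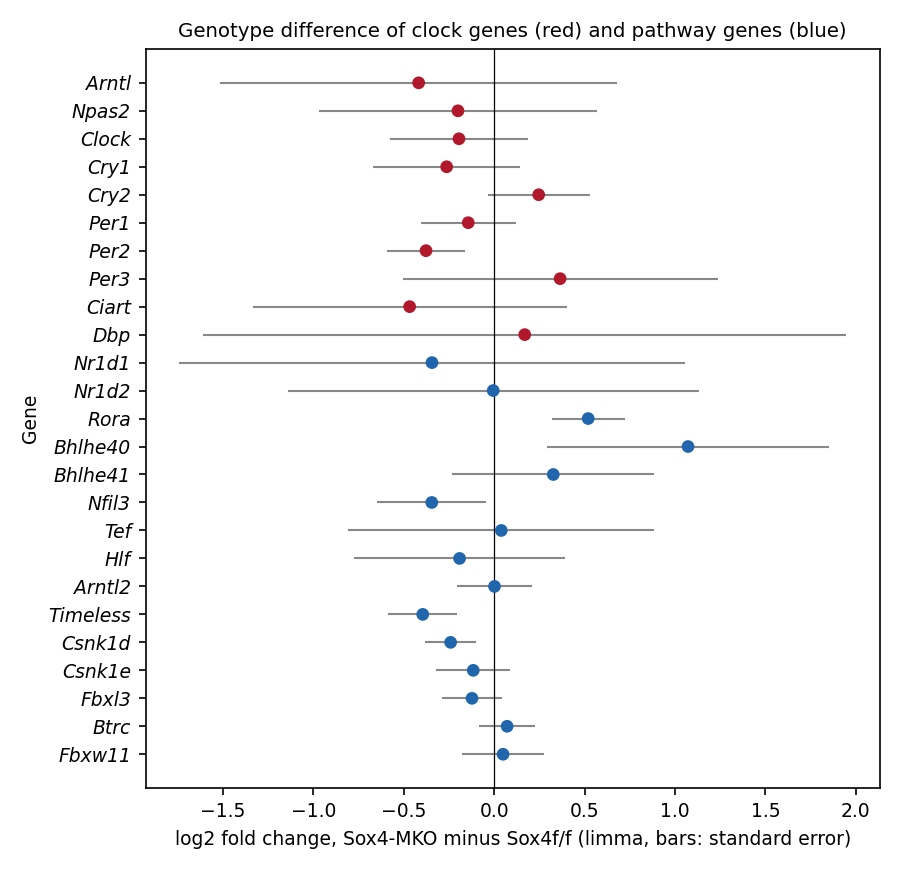
log2 fold change between Sox4-MKO and Sox4f/f for the 10 clock genes (red) and 15 other clock pathway genes (blue), from limma on log2(FPKM + 1), with 2 mice per genotype; bars show the standard error. The bars of Dbp (1.78), Nr1d1 (1.40), Nr1d2 (1.14) and Arntl (1.10) are the widest, and that of every gene drawn but 6 crosses 0.

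Of the 16 other pathway genes, 0 had an unadjusted p under 0.05 (limma), beside the 16.2% of all genes given above, and 3 did not overlap between the genotypes, Rora higher and Timeless and Csnk1d lower in Sox4-MKO, beside the 51.3% of all genes that did not overlap. Rora came nearest, with a log2 fold change of 0.52 (standard error 0.20, unadjusted p = 0.054, adjusted p = 0.315 by limma). Its unadjusted limma p was under 0.05 after scaling to a common median (log2 fold change 0.50) and with a pseudocount of 0.1 (0.59). The same held after rescaling without the mitochondrially encoded genes and Ucp1 (0.58, adjusted p = 0.251 by limma). The unadjusted p was above 0.05 after quantile normalization (0.46), without the filter, with a limit of 5 FPKM, a pseudocount of 0.01 or no moderation. With 1 library left out, the log2 fold change of Rora ran from 0.32 to 0.72. Bhlhe40 had the largest value, 1.07 (standard error 0.78, adjusted p = 0.523 by limma), which was -0.01 without Sox4-MKO mouse 1 and 2.16, with an unadjusted p under 0.05, without Sox4-MKO mouse 2. Nfil3 was at -0.34 with all libraries and at -0.74 without Sox4-MKO mouse 2.

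Genes near the clock were read from 4 further lists, for signals that reach it or leave it. Of the 10 glucocorticoid targets, 9 differed between the mice in the same direction in both genotypes, against 50.5% of all genes. Fkbp5, Zbtb16 and Mt2 did so by at least 2-fold, against 0.59% of all genes. Fkbp5, a chaperone of the glucocorticoid receptor, had 23.5 and 3.17 FPKM in Sox4f/f mice 1 and 2, against 23.0 and 9.55 FPKM in Sox4-MKO mice 1 and 2. Zbtb16, which encodes the zinc finger factor PLZF, had 64.2 and 14.6 FPKM and 48.2 and 14.2 FPKM. Of the 9, 6 were higher in mouse 1, which had high Dbp, and 3 (Sgk1, Dusp1 and Cdkn1a) were higher in mouse 2.
All 8 temperature-responsive genes differed in the same direction in both genotypes, against 50.5% of all genes, with 6 heat shock genes higher in mouse 2 and the cold-inducible Cirbp and Rbm3 higher in mouse 1. Hspa1a, an inducible HSP70, had 10.2 and 77.0 FPKM in Sox4f/f mice 1 and 2, against 6.82 and 26.3 FPKM in Sox4-MKO mice 1 and 2. Hspa1b, a near copy whose reads can be shared with it, also differed by at least 2-fold. Cirbp had 18.6 and 14.6 FPKM in Sox4f/f mice 1 and 2, against 24.5 and 14.0 FPKM in Sox4-MKO. Rbm3 was nearly equal in the Sox4f/f mice, at 62.1 and 60.7 FPKM, and stood at 74.9 and 45.2 FPKM in the Sox4-MKO mice.
Of 7 tested clock outputs, 6 kept the direction, against 50.5% of all genes, and 1, the deubiquitinase gene Usp2, differed at least 2-fold. Usp2 had 27.9 and 11.0 FPKM in Sox4f/f mice 1 and 2, against 50.3 and 11.4 FPKM in Sox4-MKO. Of 10 cAMP and immediate early genes, 6 kept the direction, near the 50.5% of all genes, and 1, the kinase gene Sik1, differed at least 2-fold. Sik1 had 5.87 and 26.2 FPKM in Sox4f/f mice 1 and 2, against 6.81 and 16.6 FPKM in Sox4-MKO. By genotype, 0 of the outputs and 0 of the temperature-responsive genes had an unadjusted p under 0.05. Among the glucocorticoid targets 1 was lower and 1 higher, and among the cAMP and immediate early genes 3 were lower and 0 higher, beside 8.28% lower and 7.95% higher of all genes.

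The mice with high Dbp, mouse 1 of each genotype, held the lowest and the highest muscle marker sum of the 4 libraries, at 225 and 16141 FPKM. Of the 10 muscle markers, 0 differed between mouse 1 and mouse 2 in the same direction in both genotypes. The part of muscle RNA in the clock gene differences was not tested.

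The genes whose centred log2(FPKM + 1) profile over the 4 libraries came nearest to Dbp were Nr1d2, Nr1d1, Zbtb16, Tef and Usp2, with root-mean-square differences of 0.72, 0.73, 1.01, 1.01 and 1.08. The 4 nearest to Arntl were Igkv4-72, Igkv6-13, Gm47122 and Tmsb15b2, at 0.21, 0.25, 0.29 and 0.32. All 4 were listed at 0 in at least 1 library, and the first 2 are immunoglobulin light chain segments whose reads can be shared with close copies. Of the 76 genes at least 2-fold apart in both genotypes, 29 were higher in mouse 1 and 47 in mouse 2, and 20 of the latter were immunoglobulin genes, a count made after the values were seen. The summed B cell markers were 1.86 and 1.24 FPKM in Sox4f/f mice 1 and 2, against 0.45 and 2.32 FPKM in Sox4-MKO mice 1 and 2, so they did not move in the same direction in both genotypes.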

How the data were processed

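Brown adipose tissue RNA of 4 mice (2 Sox4f/f, 2 Sox4-MKO) was sequenced, and the authors deposited FPKM per gene symbol for each library. The submitters' processing notes name Cufflinks 2.1.1, Cuffdiff and mm10; the aligner and the annotation are not given in the sources used here. Since FPKM are not counts, limma 3.58.1 (R 4.3.3) was fitted to log2(FPKM + 1) over the 12877 genes whose mean FPKM exceeded 1 in either genotype, the limit and p threshold of the study's methods, which do not name the test behind that p. p-values are two-sided and set the genotype difference against the spread between mice, moderated over all tested genes, with Benjamini-Hochberg adjustment. The code was tested on simulated data. Members and lists were chosen with earlier results of these data known. Named are all members, the clock pathway families, list genes past a threshold, Sox4 and the 5 genes nearest in profile to Arntl and to Dbp, of which some are not reported here. A call is an unadjusted p under 0.05. Depth was estimated from genes with 1 transcript of at least 1500 nt (GENCODE M21) and is rough. Called higher were 1 of 5 tested adipocyte markers, 3 of 5 of macrophages, 0 of 2 of T cells and 0 of 3 of endothelial cells. For Schwann and mast cells it was 0 of 2 and 2 of 3, and in these 6 lists 0 were called lower. Of the brown adipocyte markers 4 of 6 were lower and 0 higher, and of the muscle markers 9 of 10 were higher and 0 lower. Of all genes, 7.95% were called higher and 8.28% lower. Of the B cell markers none passed the FPKM limit. Alternatives covered pairing, left-out libraries, scaling, filter, pseudocount and moderation. Figures were drawn with matplotlib 3.10.9.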

Additional observations from a re-analysis of the deposited data

How the results depend on the processing

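The numbers of the mice do not pair them by the labels, and over all 12877 genes the difference between mice 1 and 2 correlated at r = -0.012 between the genotypes (genes are not independent replicates). With the mouse number as a replicate block, the median standard error of the clock genes went from 0.59 to 0.22, and that of all genes from 0.20 to 0.18. Of the clock genes 0 were called and of the other pathway genes 1 (Rora, at a log2 fold change of 0.52). Of all 12877 genes, the block called 1908, beside 2090 without it. Of 8 temperature-responsive genes it called 3 lower (Hspa1a, Hspa1b and Dnajb1) and 0 higher, against 0 without it. Of 10 glucocorticoid targets it called 3 lower (Pdk4, Mt1 and Mt2) and 1 higher (Tsc22d3), against 1 lower and 1 higher without it. The adjusted p of each of these genes under the block was 0.311 or more by limma. Each scaling (to a common median, by quantiles, or to totals that leave out Ucp1 and the mitochondrial transcripts) and a pseudocount of 0.1 also called 1 pathway gene, Timeless after quantile normalization and Rora otherwise. With 1 library left out, a lone mouse being assumed to vary like the other genotype, between 0 and 2 clock genes, 0 and 3 pathway genes and 813 and 2258 of all genes were called, the fewest without Sox4f/f mouse 1.
With a library left out, the log2 fold change ran from -1.72 to 0.88 for Arntl, -0.74 to 0.35 for Clock, -1.09 to 0.69 for Npas2, -0.50 to 0.22 for Per1, -0.89 to 1.62 for Per3, -0.74 to 0.21 for Cry1, -0.087 to 0.58 for Cry2, -1.90 to 2.24 for Dbp, -1.50 to 0.57 for Ciart and -0.013 to 2.16 for Bhlhe40, while Per2 stayed below 0. Npas2 was 0.24 with a pseudocount of 0.01, since its values lie near 0. The 10 clock genes apart in the same direction and the 4 at least 2-fold apart remained 10 and 4 in number under each scaling and pseudocount, alternatives chosen after seeing the data. Low depth limits Npas2 most.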
